A study of Homo sapiens with 18 samples.

Results

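The genes described here encode proteins of macroautophagy: cargo receptors (SQSTM1, NBR1, OPTN), the ubiquitin-like LC3 and GABARAP proteins (MAP1LC3B, GABARAP, GABARAPL1, GABARAPL2) and early factors (ULK1, BECN1, WIPI1). They were chosen by symbol from the deposited expression table, and 9 of the 10 named genes had a row among the 13992 genes listed there. SQSTM1 was not analysed here. All 9 genes passed the filter on low values (FPKM of at least 0.5 in at least 3 libraries), as did 12127 genes in all. FPKM scales fragment numbers by a length for each gene and by the library total. The lengths used are not given, so comparisons of level between genes depend on a choice that is not stated.

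The libraries came from HMC3, an immortalized human cell line labelled as microglial and wild type, exposed for 24 h to oxidized low-density lipoprotein (oxLDL). Doses were 0, 1, 2.5, 10, 50 and 100 µg/ml, with 3 libraries each (18 in all) and cells without oxLDL as the control. Every group shared the line, the genotype, the medium with serum and the 24 h of exposure. The series asks how lipid loading through the scavenger receptor CD36 alters reactive microglia, and this dose series shows how transcripts vary with the amount of oxLDL.

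In autophagy, the ULK1 kinase and the lipid kinase complex that holds BECN1 start a membrane sac, to which WIPI proteins bind. LC3 and GABARAP proteins are then joined to a lipid in that membrane. Receptors such as NBR1 and OPTN bind ubiquitin-tagged cargo on one side and LC3 or GABARAP proteins on the other, and the closed vesicle fuses with a lysosome. In macrophages and microglia the pathway delivers stored lipid to lysosomes, among other cargo. Transcript levels, measured here, do not give the amount of lipid-joined LC3 protein or the rate of degradation.

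Start-site windows are shown for the 3 genes that passed the test at 100 µg/ml, MAP1LC3B, GABARAPL1 and OPTN, as sequence around 1 annotated start of each. Each runs 5′ to 3′ on the gene's strand from 250 bases before to 50 bases after the start, from RefSeq on GRCh38.p14, and all 3 lie on the + strand. Capitals mark a match to a searched motif. The windows are chr16:87392086-87392385 for MAP1LC3B, chr12:10212627-10212926 for GABARAPL1 and chr10:13099832-13100131 for OPTN (the first of 2 starts). That of MAP1LC3B lies inside the gene span given below, which starts at 87383995. Which starts these cells use was not measured.
MAP1LC3B: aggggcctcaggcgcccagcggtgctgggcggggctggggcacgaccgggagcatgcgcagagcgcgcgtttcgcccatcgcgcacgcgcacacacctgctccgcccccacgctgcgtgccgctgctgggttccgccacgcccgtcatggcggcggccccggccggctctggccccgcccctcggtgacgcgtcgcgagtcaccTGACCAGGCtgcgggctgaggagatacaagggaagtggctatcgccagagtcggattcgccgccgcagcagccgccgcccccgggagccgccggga
GABARAPL1: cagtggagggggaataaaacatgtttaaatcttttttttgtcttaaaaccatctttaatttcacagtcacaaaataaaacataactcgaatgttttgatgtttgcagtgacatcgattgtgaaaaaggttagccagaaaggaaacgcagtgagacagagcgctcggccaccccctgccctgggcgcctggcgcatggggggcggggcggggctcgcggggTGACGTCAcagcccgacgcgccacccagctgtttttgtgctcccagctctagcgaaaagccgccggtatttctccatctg
OPTN: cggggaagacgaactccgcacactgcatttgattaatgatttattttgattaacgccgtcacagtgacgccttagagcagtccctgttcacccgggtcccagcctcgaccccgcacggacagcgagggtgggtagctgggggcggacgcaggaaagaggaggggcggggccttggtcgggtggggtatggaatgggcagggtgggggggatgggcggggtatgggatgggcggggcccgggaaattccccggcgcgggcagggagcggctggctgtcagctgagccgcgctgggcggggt
The motifs searched on both strands were CACGTG (the E-box bound by TFEB and other factors), TCACGTG (an E-box with 1 more base, which always overlaps the first), TGACNNNGC (the core of the antioxidant response element) and TGACGTCA (the cyclic AMP response element). Among all 35116 RefSeq windows of this length, 7.3%, 3.7%, 13.3% and 1.8% held them. RefSeq had 11 windows for the 9 genes, since NBR1 and OPTN had 2 each. TGACNNNGC occurred in 1 of these windows, as TGACCAGGC starting 46 bases before the MAP1LC3B start. TGACGTCA occurred in 1, starting 30 bases before the GABARAPL1 start. CACGTG and TCACGTG had 0 matches in the 11 windows. A match is a description of the letters, and its use by any factor was not measured.

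Read numbers were recovered from the steps of the FPKM values, and library totals were 13902719 to 37338597 reads. Across all genes, changes concentrated at the upper doses: 906 of 12127 genes were called at 50 µg/ml against 0 (7.47%) and 1874 at 100 µg/ml (15.5%). Calls are at an adjusted p under 0.05 in limma, with Benjamini-Hochberg adjustment over all tested genes. The labels give a single batch and do not say whether the 3 libraries of each dose were separate cultures, so the p-values reflect library spread alone, part of which may be technical. Of 11 microglia and macrophage markers 1 was listed (CD68, a lysosomal glycoprotein), against 5 of 8 fibroblast and pericyte markers (COL1A1, COL1A2, PDGFRB, RGS5 and ACTA2). The summed FPKM of those 5 was 487 to 536 without oxLDL and 341 to 382 at 100 µg/ml. Nearly all of it is COL1A1 (495.8 ± 25.5 and 356.3 ± 20.3 FPKM). PDGFRB had 8.76 ± 0.46 and 6.01 ± 0.53 FPKM. COL1A2, ACTA2 and RGS5 had means of only 0.92, 0.52 and 0.18 FPKM without oxLDL, and RGS5 was below the filter. Of the 4 tested 2, COL1A1 and PDGFRB, fell at 100 µg/ml, where 7.51% of all tested genes were called down. CD68 was at 11.9 to 12.4 FPKM without oxLDL and 14.3 to 15.7 at 100 µg/ml. It was not called in that comparison (limma adjusted p = 0.0512). All 3 libraries at each of 50 and 100 µg/ml lay above the controls, as for 14.9% and 16.5% of all tested genes. CD68 was called up on the slope (0.054 per unit of log2(dose + 1), limma adjusted p = 0.00118), as were 13.0% of all tested genes. Of neuron markers 3 of 5 were listed, with sums of 32.1 to 33.3 and then 27.1 to 29.4. Nearly all of that sum is TUBB3, which fell (31.6 ± 0.86 to 26.8 ± 1.4 FPKM), while SNAP25 had 1.06 to 1.48 FPKM and then 1.46 to 1.87, not called in that comparison but called up on the slope over all doses. Of the remaining markers 1 each of 5 astrocyte, 4 oligodendrocyte and 4 endothelial markers was listed, all under 1 FPKM. The part of these markers in the results below was not tested. RNA came from whole cultures, so fewer cells of a kind and less RNA per cell cannot be told apart.

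MAP1LC3B rose with oxLDL at 50 and 100 µg/ml, and GABARAPL1 rose at 100 µg/ml. OPTN fell at both doses, calls that did not hold in all settings: that at 50 µg/ml depended on the libraries kept, and that at 100 µg/ml on the libraries and on the model. NBR1, ULK1, BECN1, WIPI1, GABARAP and GABARAPL2 were not called at any dose. At 100 µg/ml 2 of the 9 genes were called up, where 7.94% of all tested genes were, and 1 was called down, where 7.51% were. At 50 µg/ml 1 was called up (background 3.78%) and 1 down (3.69%). The median log2 fold change of the 9 genes at 100 µg/ml was 0.024, beside -0.0037 over all tested genes. The comparisons with 0 µg/ml share the same 3 control libraries.

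**Figure D1:**
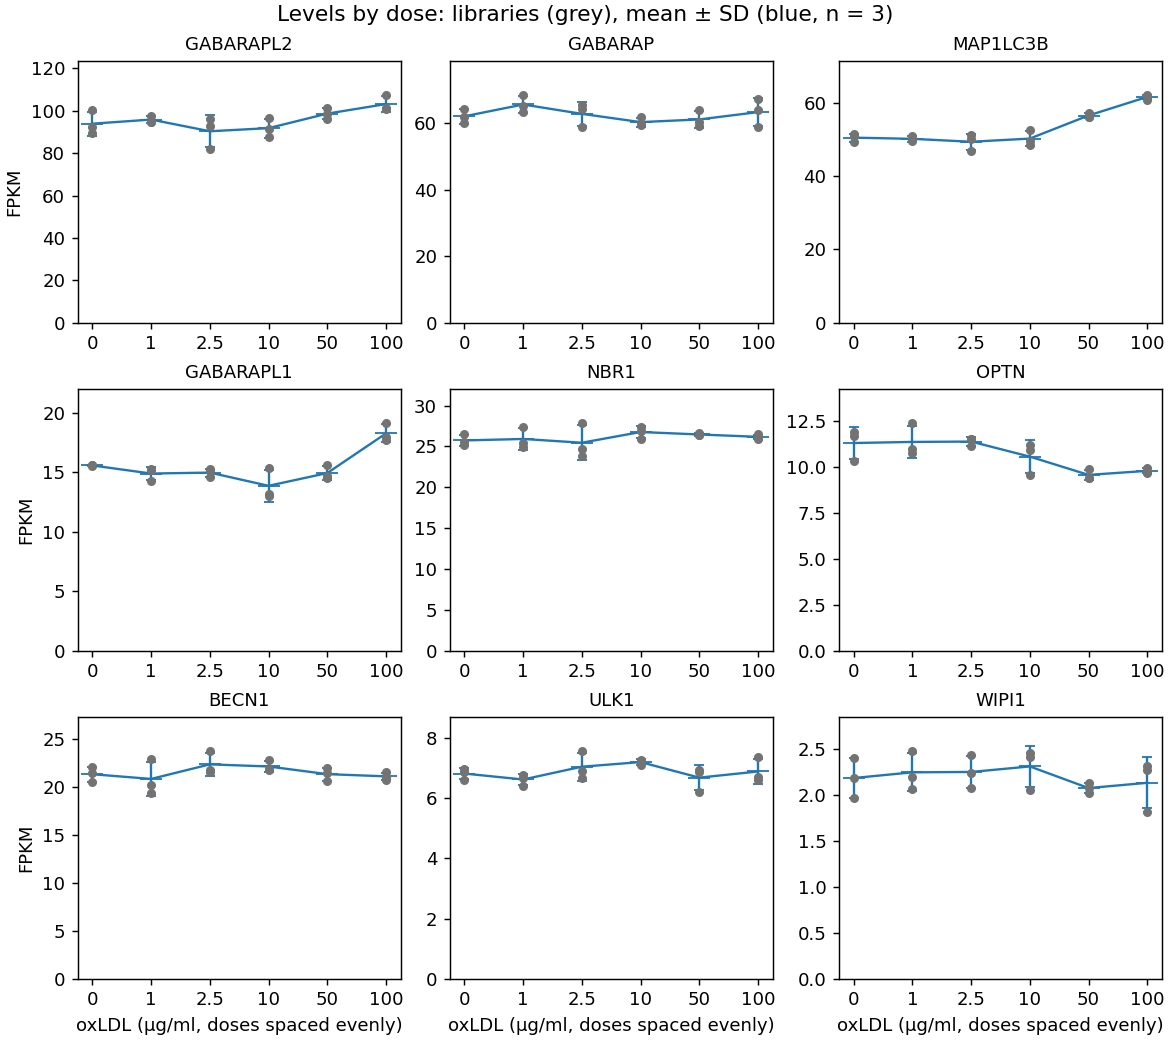
FPKM (y axis, from 0) of the 9 genes against oxLDL dose (x axis, µg/ml, doses spaced evenly), with grey points for libraries and blue bars for mean ± SD (n = 3). MAP1LC3B lies between 46.9 and 52.6 up to 10 µg/ml and above 56 at the upper doses, GABARAPL1 is highest at 100 µg/ml, and OPTN is lower at 50 and 100 µg/ml than without oxLDL.

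Levels of the genes spanned a wide range in untreated cells. Comparisons between genes depend on the length used for each, which is not given. By recovered reads the order differs: in control replicate 1 NBR1 had 3291 reads, MAP1LC3B 2269 and GABARAPL2 1846. The order by FPKM follows. GABARAPL2 was the highest (93.9 ± 5.7 FPKM, SD, n = 3), followed by GABARAP (62.0 ± 2.2), MAP1LC3B (50.5 ± 1.1), NBR1 (25.7 ± 0.70), BECN1 (21.3 ± 0.77), GABARAPL1 (15.6 ± 0.045), OPTN (11.3 ± 0.86), ULK1 (6.82 ± 0.19) and WIPI1 (2.18 ± 0.22). No neighbours in this order overlapped in these cells, and the order was the same at each of the 6 doses. The libraries of neighbours overlapped at 1 place: at 100 µg/ml those of GABARAP and MAP1LC3B did, where the means were 63.3 and 61.6 FPKM. The products of these genes differ in ways that a transcript level does not show, such as lipidation and turnover.

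Among the LC3 and GABARAP genes, MAP1LC3B encodes LC3B, the protein most used as a marker of autophagosomes (GRCh38 chromosome 16, 87383995 to 87404779, + strand). Its FPKM was 51.4, 50.9 and 49.2 without oxLDL and 56.3, 57.3 and 56.1 at 50 µg/ml. The libraries of 100 µg/ml had 60.9, 62.1 and 61.9 FPKM. These 3 doses do not overlap with each other (against the controls, 14.9% of genes were higher in this way at the lower and 16.5% at the upper dose), and the libraries of 1, 2.5 and 10 µg/ml (46.9 to 52.6) overlap with the controls. The log2 fold change of FPKM + 0.5 against 0 µg/ml was 0.16 at 50 µg/ml (SE 0.035, limma adjusted p = 0.00895) and 0.28 at 100 µg/ml (SE 0.035, adjusted p = 3.11e-05), a ratio of mean FPKM of 1.22. At 10 µg/ml it was -0.0080, with a 95% interval of -0.081 to 0.065. The step from 10 to 50 µg/ml was called (0.17, SE 0.035, adjusted p = 0.0145), where 2.61% of all genes were called and 1.39% were called up. It lost its call in 4 settings: without replicate 1 or 2 at 10 µg/ml, without replicate 2 at 50 µg/ml, and with only the compared doses in the model. The step from 50 to 100 µg/ml was not (0.12, 95% interval 0.050 to 0.20, adjusted p = 0.241), although all 3 libraries at 100 µg/ml lay above those at 50 µg/ml, as for 6.74% of genes. The change against 0 µg/ml kept its call in all 28 other settings at both doses, with values of 0.14 to 0.17 at 50 µg/ml and 0.27 to 0.30 at 100 µg/ml.

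MAP1LC3B rested on 1779 to 4984 reads per library. Its exons share 150 of 5313 annotated bases with FBXO31, a ubiquitin ligase subunit on the opposite strand, and the library kit named in the labels does not mark strand. FBXO31 had 4.75 ± 0.084 FPKM without oxLDL and 4.72 ± 0.14 at 100 µg/ml. MAP1LC3B2 is a near-identical copy of MAP1LC3B and GABARAPL3 one of GABARAPL1. How reads shared between such copies were counted is not given in the sources used here, and neither copy was analysed here. The values of MAP1LC3B and GABARAPL1 are uncertain to that extent.

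GABARAPL1 (chromosome 12, 10212458 to 10223130, + strand) encodes another member of the family, which also binds GABA type A receptors. Its FPKM was 15.6, 15.6 and 15.5 without oxLDL and 15.4, 13.2 and 13.0 at 10 µg/ml. The libraries of 50 µg/ml had 14.5, 15.6 and 14.7 FPKM. The libraries of 100 µg/ml had 19.1, 17.7 and 17.9 FPKM. All 3 libraries of 100 µg/ml lay above the controls, as for 16.5% of all tested genes. Those of 10 µg/ml all lay below the controls, and those of 50 µg/ml overlapped with them. The log2 fold change at 100 µg/ml was 0.22 (SE 0.053, limma adjusted p = 0.00797; ratio of mean FPKM 1.17), and it was called in all 28 other settings. The step from 50 to 100 µg/ml was 0.28 (SE 0.053, adjusted p = 0.0237), where 0.280% of all genes were called and 0.223% were called up. Of the 28 other settings 6 ended this call. They were leaving out replicate 1 or 3 of either dose, modelling only the compared doses, and fitting no variance trend.

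At the lower doses GABARAPL1 was nominally below the controls. All 3 libraries at each of 1, 2.5 and 10 µg/ml lay under the lowest control, as for 4.63%, 3.51% and 6.84% of all genes at these doses. The largest of these differences, -0.17 at 10 µg/ml (SE 0.053), had an unadjusted p of 0.00603 and an adjusted p of 0.493 in limma, so it did not pass the test. The 3 controls differed by a coefficient of variation of 0.3%, below the 3.3% that counting alone gives for their read numbers. The slope on log2(dose + 1) over all doses was 0.022 per unit (adjusted p = 0.161) and was not called, while the test over all doses was (adjusted p = 0.0013; 15.4% of all genes were called in it).

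GABARAPL2, also known as GATE-16, takes part in transport within the Golgi as well as in autophagy (chromosome 16, 75566351 to 75577881, + strand). Its FPKM was 92.2, 89.3 and 100.3 without oxLDL and 107.4, 100.9 and 101.3 at 100 µg/ml. The groups do not overlap, by a margin of under 1 FPKM, as for 16.5% of all genes in this direction. The difference of 0.14 on the log2 scale (95% interval 0.021 to 0.25) had a limma adjusted p of 0.108 and was not called. It was called when control replicate 3 was left out (0.18, adjusted p = 0.045), or replicate 3 at 2.5 µg/ml (0.14, adjusted p = 0.0415). Its slope, 0.019 per unit of log2(dose + 1), had an adjusted p of 0.0591.

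GABARAP, the founding member of its subfamily (chromosome 17, 7240014 to 7242770, - strand), had 61.7, 59.9 and 64.3 FPKM without oxLDL and 67.1, 63.8 and 58.8 at 100 µg/ml. The groups overlap. The log2 fold change at 100 µg/ml was 0.027 (95% interval -0.079 to 0.13; limma adjusted p = 0.789), and at 50 µg/ml -0.022 (-0.13 to 0.084). An increase of the size seen for MAP1LC3B at 100 µg/ml lies outside this interval.

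The spread of GABARAPL2 and GABARAP between libraries of a dose followed a property of the whole library, its summed FPKM over all genes. That sum ran from 386396 to 413363. Since FPKM divides reads by a length, it is larger where more reads fall on genes with short lengths. For GABARAPL2 1846 reads gave 92.2 FPKM in control replicate 1, for GABARAP 1674 gave 61.7 and for NBR1 3291 gave 25.6. The length used for NBR1 was thus the longest of these 3. A correlation with the sum is therefore not independent of gene length, and genes of like length were not compared. After the dose means were removed, log2 values of GABARAPL2 correlated with the log2 sum over 18 libraries (Pearson r = 0.922, exact permutation within doses p = 6.43e-05, adjusted p = 0.000579; Spearman rho = 0.882, exact p = 0.000107). For GABARAP r was 0.832 (exact permutation p = 0.000707, adjusted p = 0.00318; rho = 0.789, p = 0.000643). Without the 2 libraries whose sums lay farthest from the median, r was 0.911 and 0.774. For MAP1LC3B, GABARAPL1 and OPTN r was 0.240, -0.045 and -0.080 (exact permutation adjusted p = 0.746, 0.814 and 0.814 over the 9 relations computed). NBR1, BECN1 and ULK1 had negative values (-0.727, -0.616 and -0.571, exact permutation adjusted p = 0.093, 0.103 and 0.12), and WIPI1 had -0.193 (adjusted p = 0.731). Mean sums were 404905 without oxLDL, 399763 at 50 µg/ml and 404092 at 100 µg/ml.

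**Figure D2:**
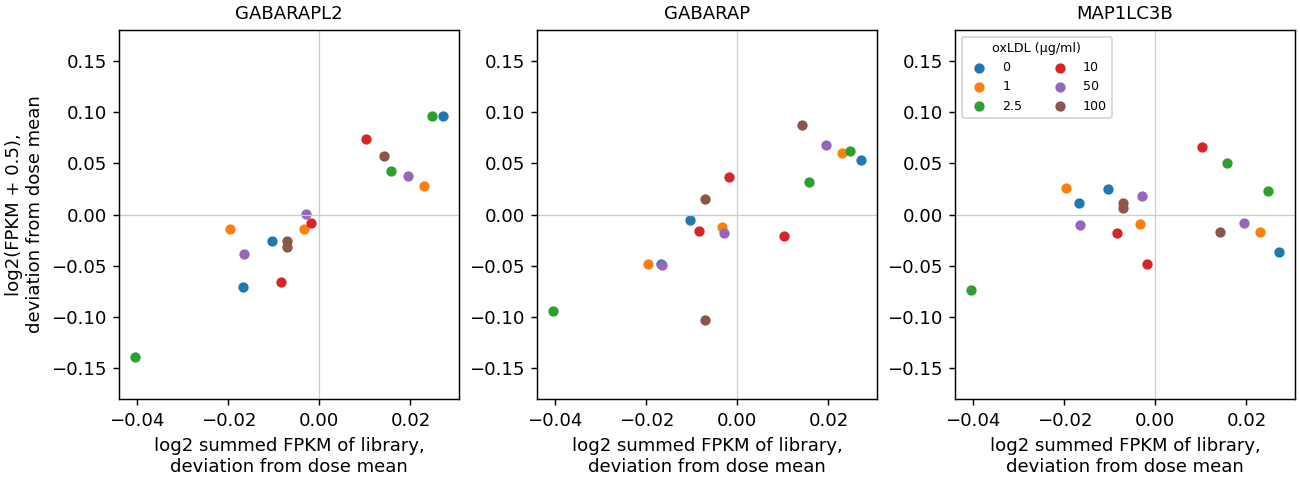
Deviation from the dose mean of log2(FPKM + 0.5) (y axis) against that of the log2 summed FPKM of the library (x axis) for 3 genes, with 1 point per library coloured by dose. Points of GABARAPL2 and GABARAP rise from lower left to upper right (r = 0.922 and 0.832), and those of MAP1LC3B do not (r = 0.240).

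With the log2 sum as a covariate, an alternative chosen after seeing these values, GABARAPL2 was called at both upper doses. This setting also called more genes overall: 10.6% of all tested genes at 50 µg/ml, against 7.47%, and 21.1% at 100 µg/ml, against 15.5%. The GABARAPL2 log2 fold change was then 0.13 at 50 µg/ml (SE 0.027, limma adjusted p = 0.00655) and 0.15 at 100 µg/ml (SE 0.026, adjusted p = 0.000977). The calls of MAP1LC3B, GABARAPL1 and OPTN were the same with this covariate at both doses. What shifts reads between shorter and longer genes in these libraries, and so the sum, was not tested.

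Within a library, MAP1LC3B and GABARAPL1 made up a larger and GABARAP a smaller part of the 4 measured LC3 and GABARAP genes at 100 µg/ml than without oxLDL, in all 3 libraries. The margins were narrow for GABARAPL1 (highest control 7.22%, lowest treated library 7.24%) and MAP1LC3B (23.6% and 23.9%). These shares were not tested, and their sizes depend on the gene lengths used for FPKM. The summed FPKM was 222 ± 6.9 without oxLDL and 246 ± 7.4 at 100 µg/ml (SD, n = 3), with ranges of 216 to 229 and 240 to 255 that do not overlap. The share of MAP1LC3B in that sum was 23.3%, 23.6% and 21.5% without oxLDL and 23.9%, 25.4% and 25.8% at 100 µg/ml, while GABARAP had 27.9%, 27.8% and 28.0% and then 26.4%, 26.1% and 24.5%. GABARAPL1 held 7.06%, 7.22% and 6.76% and then 7.51%, 7.24% and 7.48%, and GABARAPL2 held 42.3 ± 1.3% and 41.9 ± 0.55%. The ratio of MAP1LC3B to GABARAP FPKM, in which the library total cancels, was 0.833, 0.850 and 0.766 without oxLDL and 0.907, 0.973 and 1.05 at 100 µg/ml. It can still vary with the summed FPKM, which GABARAP followed (r = 0.832) and MAP1LC3B did not (r = 0.240). In both groups the lowest ratio was in the library with the highest sum. The ratios of all 3 treated libraries lay above those of the controls. The 2-sided exact permutation p was 0.1, the smallest that 3 against 3 libraries allow (0.15 adjusted over 6 ratios). Of 6 such ratios between the 4 genes, those of GABARAPL1 to GABARAP, GABARAPL2 to GABARAP and GABARAPL1 to GABARAPL2 also did not overlap between the doses (exact p = 0.1 each, adjusted p = 0.15). The ratios of MAP1LC3B to GABARAPL1 and to GABARAPL2 did overlap (exact p = 0.3 and 0.2, adjusted p = 0.3 and 0.24).

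**Figure D3:**
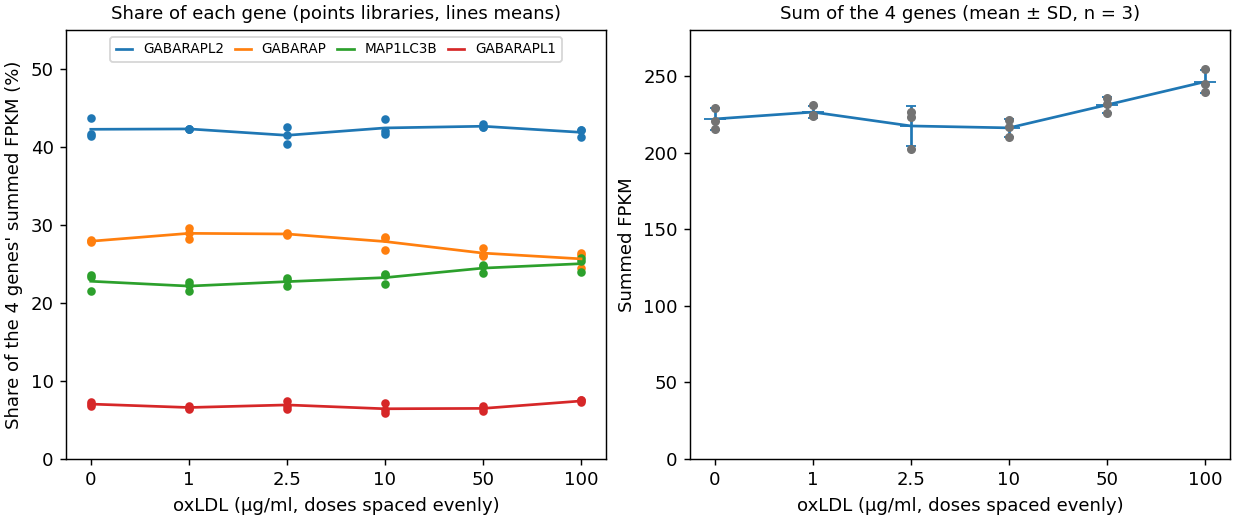
Left, share of each gene in the summed FPKM of the 4 LC3 and GABARAP genes (y axis, %) by oxLDL dose (x axis, µg/ml, doses spaced evenly), with points for libraries and lines through means. Right, that sum (mean ± SD, n = 3). The lines of GABARAP and MAP1LC3B approach each other at 50 and 100 µg/ml, and the sum is highest at 100 µg/ml (246 ± 7.4).

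Of the receptors, OPTN encodes optineurin, which TBK1 phosphorylates and which takes damaged mitochondria and bacteria to autophagosomes (chromosome 10, 13099449 to 13138308, + strand). Its FPKM was 11.9, 10.3 and 11.7 without oxLDL and 9.42, 9.86 and 9.41 at 50 µg/ml. The libraries of 100 µg/ml had 9.69, 9.94 and 9.72 FPKM. Both upper doses lay below the lowest control, as for 13.3% and 16.9% of all genes at these doses. The log2 fold change was -0.23 at 50 µg/ml (SE 0.062, limma adjusted p = 0.0362) and -0.20 at 100 µg/ml (SE 0.062, adjusted p = 0.0432), and the slope over all doses was -0.038 per unit of log2(dose + 1) (SE 0.0074, adjusted p = 0.00058; 12.6% of all genes were called down on the slope). The call at 100 µg/ml was lost in 14 of 28 other settings, with the highest adjusted p of 0.174 when control replicate 1 was left out. With all libraries kept it was lost with centred libraries (0.0574), only the compared doses (0.0548), no variance trend (0.0552) and the replicate block (0.0576). That at 50 µg/ml was lost in 5, each leaving out 1 library: control replicate 1 (0.149) or 3, or any of the 3 libraries of that dose. The slope call was present in all 27 other settings run. OPTN shares 147 of 5138 exon bases with CCDC3 on the opposite strand, which had 0.220 ± 0.010 FPKM without oxLDL.

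NBR1, a receptor that resembles SQSTM1 in its domains (chromosome 17, 43170481 to 43211689, + strand), had 25.6, 26.5 and 25.1 FPKM without oxLDL and 26.1, 26.0 and 26.5 at 100 µg/ml. The groups overlap. The log2 fold change at 100 µg/ml was 0.024 (95% interval -0.076 to 0.12; limma adjusted p = 0.801), from 2306 to 6070 reads per library. Over all 18 libraries NBR1 stayed between 23.9 and 27.9 FPKM, and both ends of that range were libraries at 2.5 µg/ml.

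The early factors were not called in any comparison. ULK1, the kinase that starts autophagosome formation (chromosome 12, 131894651 to 131923167, + strand), had 6.60, 6.87 and 6.97 FPKM without oxLDL and 6.59, 6.71 and 7.36 at 100 µg/ml, a log2 fold change of 0.012 (95% interval -0.10 to 0.13; limma adjusted p = 0.919). At 10 µg/ml its libraries (7.28, 7.22 and 7.11) lay above all controls, as for 10.1% of genes, with an adjusted p of 0.629. BECN1, which encodes the lipid kinase subunit Beclin 1 (chromosome 17, 42810134 to 42833350, - strand), had 22.1, 21.4 and 20.5 FPKM without oxLDL and 20.7, 21.1 and 21.5 at 100 µg/ml (-0.014, 95% interval -0.12 to 0.095; adjusted p = 0.901). It shares 795 of 6414 exon bases with CNTD1 and 300 with PSME3, both on the opposite strand, and PSME3, a proteasome activator, was at 86.6 ± 1.3 FPKM without oxLDL, so part of its reads cannot be assigned with certainty.

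WIPI1, which binds the lipid made by the BECN1 complex (chromosome 17, 68420948 to 68457513, - strand), was the lowest of the 9 genes. Its FPKM was 2.40, 1.96 and 2.18 without oxLDL and 1.81, 2.31 and 2.27 at 100 µg/ml. On the log2 scale the difference was -0.030 (95% interval -0.21 to 0.15; limma adjusted p = 0.872). It rested on 140 to 383 reads per library, which give a counting error of about 6.7% (median over doses) beside a median spread of 9.4% between libraries of a dose. Its interval is the widest of the 9 genes at 100 µg/ml. WIPI1 also shares 828 of 3402 exon bases with ARSG on the opposite strand, and GABARAP 571 of 2266 with AC120057.3 on the opposite and 691 with AC120057.2 on its own strand.

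**Figure D4:**
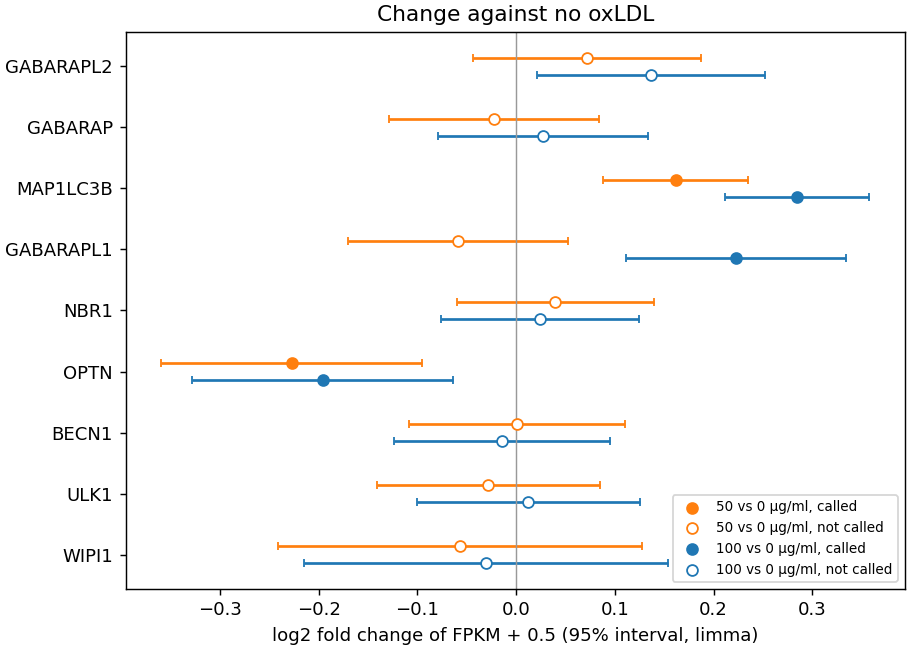
Log2 fold change of FPKM + 0.5 (x axis) at 50 µg/ml (orange) and 100 µg/ml (blue) against no oxLDL for the 9 genes (y axis), with 95% intervals from limma; filled points are called. MAP1LC3B and OPTN are filled at both doses and GABARAPL1 at 100 µg/ml, and the intervals of NBR1, ULK1, BECN1, WIPI1 and GABARAP include 0.

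No gene of the 9 was called at 1, 2.5 or 10 µg/ml by limma or by limma-voom on the recovered reads. Over all genes 0, 0 and 5 were called at these doses (0%, 0% and 0.0412%), with 365, 531 and 1185 at an unadjusted p under 0.05 (3.01%, 4.38% and 9.77%). Among the 9 genes only GABARAPL1 at 10 µg/ml had an unadjusted p under 0.05. On the slope, MAP1LC3B was called up (0.042 per unit of log2(dose + 1), SE 0.0064, adjusted p = 5.59e-05; 13.0% of all genes) and OPTN down.

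Other genes of the pathway were looked at by role. Of 80 listed genes 67 had a row and 65 were tested. At 100 µg/ml 6 rose (background 7.94%) and 2 fell (7.51%), and the median log2 fold change was 0.041. At 50 µg/ml 2 rose (background 3.78%) and 1 fell (3.69%). On the slope 12 were called up and 8 down, where 13.0% and 12.6% of all tested genes were. MAP1LC3A, MAP1LC3C, MAP1LC3B2 and GABARAPL3 were not analysed here.

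Among 15 further cargo receptors tested, SEC62, which takes endoplasmic reticulum to autophagosomes, rose at 100 µg/ml and CALCOCO1, a receptor for endoplasmic reticulum and Golgi, fell. At this dose 7.94% of all tested genes were called up and 7.51% down. SEC62 went from 23.1 ± 0.34 to 25.5 ± 0.81 FPKM (log2 fold change 0.14, limma adjusted p = 0.00291). CALCOCO1 went from 5.32 ± 0.20 to 4.56 ± 0.30 (-0.20, adjusted p = 0.0173). Its call did not hold in 4 settings: when replicate 3 of 100 µg/ml (0.0998) or control replicate 1 or 2 was left out, and with only the compared doses. The 10 tested enzymes that process and join LC3 and GABARAP proteins had 0 calls at 100 µg/ml (median 0.0094), where 15.5% of all tested genes were called. At 50 µg/ml 1 of them, ATG16L2, fell, where 3.69% of all tested genes were called down. It went from 1.53 ± 0.13 to 1.10 ± 0.16 FPKM (-0.35, limma adjusted p = 0.029). The call did not hold when replicate 1 (0.111) or 2 of 50 µg/ml or control replicate 1 or 2 was left out. Nor did it hold with only the compared doses. On the slope 3 of these 10 enzymes were called up and 0 down, where 13.0% and 12.6% of all tested genes were. They were ATG12, ATG4A and ATG4D (limma adjusted p = 0.00485, 0.0285 and 0.0337).

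Of 17 further initiation and membrane factors, 2 rose at 100 µg/ml, where 7.94% of all tested genes were called up. VMP1, a lipid scramblase of the endoplasmic reticulum, went from 38.2 ± 1.5 to 46.3 ± 2.8 FPKM (0.27, limma adjusted p = 0.000474), and it was also called at 50 µg/ml (0.18, adjusted p = 0.024). The call at the lower of these doses did not hold when control replicate 1 or 3 (0.111) or replicate 1 or 2 of that dose was left out. VMP1 overlaps the microRNA gene MIR21 on its strand and PTRH2 on the other. WDR45B, a relative of WIPI1, went from 78.3 ± 0.53 to 82.8 ± 0.84 FPKM (0.079, adjusted p = 0.0367) and lost its call in 10 settings, among them without any 1 of the 6 libraries compared (at most 0.111).

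Of 11 fusion genes, RAB7A, the small GTPase of late endosomes and lysosomes, rose at 50 and 100 µg/ml. At these doses 3.78% and 7.94% of all tested genes were called up, and at 100 µg/ml 7.51% were called down. The FPKM of RAB7A was 145.8, 147.1 and 151.0 without oxLDL and 160.4, 161.5 and 160.2 at 50 µg/ml. The libraries of 100 µg/ml had 173.2, 174.3 and 177.0 FPKM. These 3 doses do not overlap. Of all tested genes 14.9% and 16.5% were higher in this way at 50 and 100 µg/ml against 0, and 6.74% at 100 against 50 µg/ml. The log2 fold changes of RAB7A were 0.12 and 0.24 (limma adjusted p = 0.0103 and 9.86e-06). The first of these calls did not hold without control replicate 1 (0.0552) or with libraries centred on their median (0.087). TECPR1, which tethers autophagosomes to lysosomes, fell at 100 µg/ml (3.10 ± 0.16 to 2.59 ± 0.16 FPKM, -0.22, adjusted p = 0.0253), which did not hold when replicate 3 of 100 µg/ml (0.124) or control replicate 1 or 2 was left out, or with only the compared doses.

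Of 12 tested upstream regulators, 2 rose at 100 µg/ml and 0 fell (7.94% and 7.51% of all tested genes), with a median of -0.044. On the slope 2 were called up and 4 down, where 13.0% and 12.6% of all tested genes were. Those called down were MLST8, FOXO3, DDIT4 and NFE2L2. TBK1, the kinase of OPTN, went from 11.1 ± 0.77 to 13.5 ± 0.55 FPKM (0.27, limma adjusted p = 0.00536). KEAP1, the NRF2 inhibitor that SQSTM1 binds, went from 25.1 ± 1.0 to 28.5 ± 1.3 (0.18, adjusted p = 0.00273). Both kept their calls in the 28 other settings run. Exons of ATG16L2, WDR45B, TBK1 and SEC62 overlap a gene on the opposite strand (by 680 bases with FCHSD2, 53 with FOXK2, 702 with AC135279.3 and 100 with AC008040.1), so part of their reads is uncertain.

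**Figure D5:**
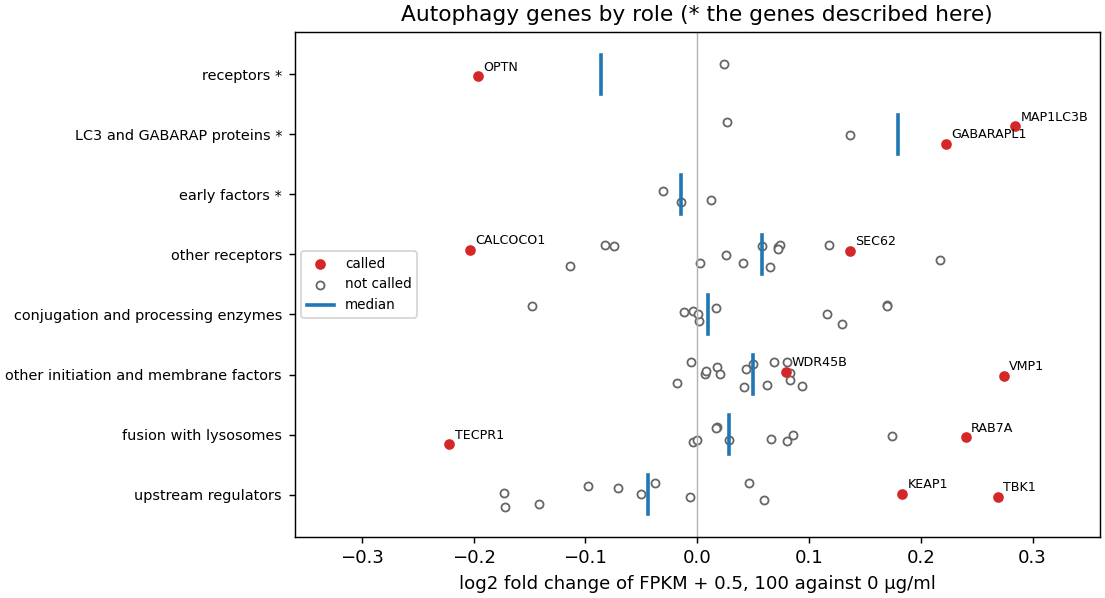
Log2 fold change of FPKM + 0.5 at 100 against 0 µg/ml (x axis) for tested genes grouped by role (y axis; asterisks mark the groups of the 9 genes described first), with called genes in red and named, uncalled genes open and the median of a group as a blue bar. MAP1LC3B, VMP1, TBK1, RAB7A, GABARAPL1, KEAP1, SEC62 and WDR45B are called to the right of 0, and TECPR1, CALCOCO1 and OPTN to the left.

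The genes whose values over the 18 libraries were most like those of MAP1LC3B, among 10476 others with a mean of at least 1 FPKM, were F2RL2, RAB7A, MAFF, UCHL1 and VEGFC (Pearson r on log2 values of 0.974, 0.970, 0.967, 0.967 and 0.964). The libraries share doses, so these values describe a common dose pattern. The log2 fold changes of these genes at 100 µg/ml were 0.56, 0.24, 0.72, 0.51 and 0.62, against 0.28 for MAP1LC3B. RAB7A, the fusion gene described above, is the one of the 5 that belongs to the autophagy lists. MAFF encodes a small Maf transcription factor and went from 15.2 ± 1.0 to 25.4 ± 1.7 FPKM.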

How the data were processed

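Poly-A RNA was measured in 18 HMC3 libraries (3 per dose, grouped by the treatment label). The values deposited by the authors are FPKM per gene symbol. HISAT2 2.0.5, featureCounts, DESeq2 and build hg38 are named in the submitters' processing notes, without their settings. Scaling by a library total makes each value relative to all other genes of its library.

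Values were taken as log2(FPKM + 0.5), which understates changes of low genes. The 12127 of 13992 genes that reached 0.5 FPKM in 3 or more libraries were fitted with limma 3.58.1 (R 4.3.3) and a variance trend, each dose having its own mean, which leaves 12 residual degrees of freedom. Calls are Benjamini-Hochberg adjusted p under 0.05. A slope on log2(dose + 1) was fitted apart. FPKM steps gave whole read numbers for 100% of genes (tolerance 0.05 reads); these recovered reads gave counting errors and a limma-voom alternative. Totals are sums over listed genes, and counting errors cover counting only. The fit and the recovery were tested on simulated data.

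All 9 measured genes are named. From each further autophagy list, all called genes are named where 5 or fewer were called, and for likeness the 5 genes with the highest Pearson r to MAP1LC3B; that rule could not be applied to SQSTM1. Genes and lists were chosen with earlier results of these data known. Gene positions and exon overlaps are from GENCODE 29 (GRCh38). In all, 28 alternatives were run: pseudocount, filter, centring, samples in the model, variance trend, replicate block, limma-voom, summed FPKM as a covariate (added after seeing the data) and leaving out each library.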

Additional observations from a re-analysis of the deposited data

How the results depend on the processing

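Over 28 alternatives the calls of MAP1LC3B at 50 and 100 µg/ml and of GABARAPL1 at 100 µg/ml were present in each. With only the compared doses in the model, 0 of the 9 genes were called at 50 against 10 µg/ml and 0 at 100 against 50 µg/ml, and with no variance trend 0 at 100 against 50 µg/ml. Leaving out 1 library gave 1 to 2 called genes at 50 against 0 µg/ml, 0 to 1 at 50 against 10 and 0 to 1 at 100 against 50. The cause was not tested.

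Uncalled log2 fold changes near 0 changed sign. At 50 µg/ml GABARAP was 0.0243 with summed FPKM as a covariate, and BECN1 was -0.0075 with centred libraries, -0.0045 with limma-voom and -0.0338 with the covariate. At 100 µg/ml limma-voom gave -0.0010 for ULK1 and 0.0004 for WIPI1. Leaving out 1 library gave, at 50 µg/ml, -0.0560 to 0.0045 for GABARAP, -0.0552 to 0.0198 for ULK1, -0.0261 to 0.0257 for BECN1 and -0.1167 to 0.0019 for WIPI1. At 100 µg/ml it gave -0.0168 to 0.0785 for GABARAP, -0.0329 to 0.0414 for ULK1, -0.0412 to 0.0092 for BECN1 and -0.0902 to 0.0599 for WIPI1.

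Not every pair of libraries with the same number deviated together (45 pairs, r -0.333 to 0.245, 10 over 0.1; 5 of 18 closest to their own number), and the labels tie the numbers to nothing shared, so the numbers were not taken as pairs. Some sets did: the 6 pairs among replicates 1 of 1, 2.5, 50 and 100 µg/ml had r of 0.134 to 0.245, and the 3 among replicates 3 of 2.5, 50 and 100 µg/ml 0.137 to 0.181. With the replicate block 2 of the 9 genes were called at 50 µg/ml and 2 at 100 µg/ml, where OPTN had an adjusted p of 0.0576, 2 on the slope and 3 over all doses. Of all tested genes it called 7.92%, 15.8%, 25.5% and 15.7% in these tests.

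Counts over all genes moved by more than 1.5 times in some settings. At 50 against 0 µg/ml (906) the lowest was 458, without replicate 1 at 0 µg/ml. At 100 against 0 µg/ml (1874) it was 1203, without replicate 3 at 100 µg/ml. At 50 against 10 µg/ml (317) counts ran from 79, without replicate 2 at 10 µg/ml, to 727, without replicate 3 at 10 µg/ml, with 86 from only the compared doses and 490 from limma-voom. At 100 against 50 µg/ml (34) the covariate gave 66, and at 10 against 0 µg/ml (5) counts ran from 0 to 9. No scaling moved the median of all genes by over 0.1. Depth limits WIPI1 most, at 140 to 383 reads per library.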
